A study of Rattus norvegicus with 2 samples.

Results

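Among the cells of the postnatal rat cochlear duct, 307 of 25360 kept cells held messenger RNA of Epcam together with that of Tecta or Epyc. They were chosen by their own counts, as cells with at least 2 unique molecular identifiers (UMIs, counted RNA molecules) of Epcam and a sum of at least 3 UMIs over Tecta and Epyc. Epcam, an adhesion protein of epithelia, stood for epithelium. Tecta, which encodes alpha-tectorin, and Epyc, which encodes the proteoglycan epiphycan, stood for the tectorial membrane. This working label fitted the cells unevenly. At P1, 66 of them held Epyc and no UMI of Tecta. Some groups described below were led by Oc90, a marker of Reissner's membrane, or held cells that a doublet caller marked. The cells so chosen are called members here, and their levels of these 3 genes are a description with no test.

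The data were single-cell RNA sequencing libraries made with the 10x Genomics droplet method, 1 from Sprague-Dawley rats at postnatal day 1 (P1) and 1 at postnatal day 7 (P7). No rat carried a named allele or received a treatment, and each library pooled the cochlear tissue of many rats. The comparison asks how the cells of the greater epithelial ridge change over the first postnatal week. With 1 library at each age, age and library cannot be told apart, no test between ages was possible, and the exact 95% intervals given here cover counting error only.

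The greater epithelial ridge, or Kölliker's organ, is a transient tall epithelium on the medial side of the organ of Corti. Its cells, the supporting cells and the interdental cells of the spiral limbus secrete the tectorial membrane, an extracellular sheet of collagen and glycoproteins that lies over the hair bundles and is needed to excite hair cells by sound. Cells of the ridge also release ATP and drive spontaneous activity of hair cells before hearing begins, and most of them disappear as the inner sulcus forms.

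The P1 library held 176 members of 12779 kept cells, a share of 1.38% (1.18 to 1.59). The P7 library held 131 members of 12581, a share of 1.04% (0.871 to 1.23). The log2 ratio of the shares, P7 to P1, was -0.40 (-0.74 to -0.07). This order was not kept at equal depth. When every cell was thinned to 2000 UMIs, the members were 52 of 12527 cells (0.415%) at P1 and 50 of 11870 (0.421%) at P7. The members carried a median of 8947 UMIs (1523 to 34420) and 2640 genes per cell at P1, and 10425 UMIs (989 to 26321) and 3073 genes at P7. Mitochondrial genes took 8.52% and 8.27% of their UMIs and ribosomal protein genes 20.6% and 14.5%, at P1 and P7 in that order. Of the barcode sequences, 60 occurred in both libraries, and 0 of these were members.

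Some members sat close to the chosen limit. Among Epcam cells, the sum of Tecta and Epyc UMIs was 2 in 17 cells at P1 and 7 at P7, just outside the rule, and 3 in 14 and 9 cells, just inside it. The Epcam cells under the limit, 86 at P1 and 50 at P7, are called the other Epcam cells and served as the nearest comparison. Where an alternative below changed the rule, both sets were drawn anew. With Tecta alone or Epyc alone in the rule, members that no longer passed joined the other Epcam cells. A further 108 cells at P1 and 212 at P7 had at least 3 UMIs of Tecta and Epyc but fewer than 2 of Epcam. A doublet caller marked 14 members (7.95%) at P1 and 7 (5.34%) at P7, against 4.87% and 6.16% of all kept cells.

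The promoters of 3 genes of the tectorial membrane are shown because the members divided by these genes. Tectb encodes beta-tectorin, Otoa encodes otoancorin, which anchors the membrane to the limbus, and Epyc is a gene of the rule. Each line gives the 100 bases before the RefSeq start site on rat assembly GRCr8, plus strand, 5′ to 3′, and capitals mark a GATAA match.
Tectb, chr1:264226863-264226962: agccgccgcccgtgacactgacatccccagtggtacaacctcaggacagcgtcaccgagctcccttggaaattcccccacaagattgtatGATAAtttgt
Otoa, chr1:185074171-185074270: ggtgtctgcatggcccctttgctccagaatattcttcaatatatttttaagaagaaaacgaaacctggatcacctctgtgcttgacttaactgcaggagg
Epyc, chr7:34323232-34323331: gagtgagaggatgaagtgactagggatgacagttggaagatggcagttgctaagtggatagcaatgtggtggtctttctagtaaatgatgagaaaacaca

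The letters GATAA or TTATC, the core of the sites that GATA factors bind, and TATAAA or TTTATA, the TATA box, were searched on both strands. They occurred in 9.15% and 5.78% of 33469 RefSeq promoters of the same length. Neither was found in the windows of Otoa and Epyc. The windows of Otog, Otogl, Ceacam16, Ucma, Bmp4 and Fbxo2 were searched too and held neither. Tecta, the other membrane gene of the rule, had no listed promoter and could not be searched. A match of letters is a description of the window. The counts were made on another assembly.

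The unit of a level is CPM: UMIs were summed over a set of cells and scaled to the same total. They are counts of molecules from the transcript end and were not divided by length, so they compare a gene between sets of cells and not one gene with another. Tecta was at 705 CPM in the members at P1 and 694 CPM at P7, Epyc was at 1253 and 3728 CPM, and Epcam was at 1121 and 1857 CPM. In the other Epcam cells, Tecta was at 22.2 and 44.9 CPM and Epyc at 37.5 and 14.3 CPM, as the rule required.

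Tecta and Epyc were often in different cells. At P1, 64 members (36.4%) held Tecta with no UMI of Epyc, 66 (37.5%) held Epyc with none of Tecta and 46 (26.1%) held both. At P7 the same classes held 31 (23.7%), 24 (18.3%) and 76 members (58.0%). At least 3 UMIs of each gene were present in 20 members (11.4%) at P1 and 48 (36.6%) at P7. A member held a median of 3 UMIs of Tecta (0 to 142) at P1 and 4 (0 to 52) at P7. For Epyc the median was 5 UMIs (0 to 188) at P1 and 6 (0 to 455) at P7. The P7 members were deeper, and these shares were not thinned to a common depth.

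**Figure D1:**
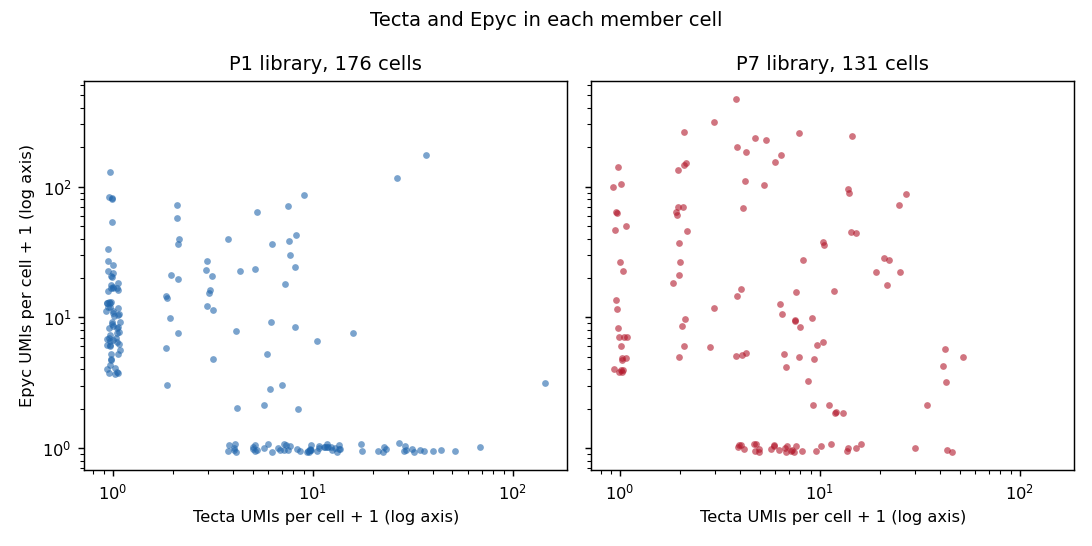
UMIs of Tecta (horizontal) and Epyc (vertical) plus 1 in each member, on log axes with small random offsets, for the 176 members at P1 and the 131 at P7. At P1 most points lie along one of the axes, with 46 cells holding both genes, and at P7 76 cells hold both.

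Levels of epithelial markers in the members are given as a description and not as a check of the label. A gene was counted as higher or lower when it differed past 2-fold on the log2(CPM + 5) scale, among genes with a mean of at least 10 CPM over the sets compared. Against all other kept cells, 6.97% of 7531 tested genes were higher and 8.91% lower in the members at P1, and 7.96% of 7835 were higher and 7.02% lower at P7. Most epithelial genes were near 0 outside the members and passed the filter only through them, so no count of them is given. The list of 23 epithelial genes, Epcam among them, summed to 4136 CPM in the members and 297 CPM in all other cells at P1, and to 6524 and 570.1 CPM at P7, and 0 of the 23 were at 0 UMIs in the members. The sums describe the members, since Epcam itself chose the cells. Cldn9, a claudin of tight junctions, was at 358 CPM against 3.40 CPM in all other cells at P1 and at 769 against 4.67 CPM at P7. Krt18, a keratin of simple epithelia, was at 209 against 3.67 CPM at P1. Both Cldn9 and Krt18 passed the filter only through the members. The genes with the highest ratios to all other cells also included Fbxo2, an F-box protein of the ubiquitin system that recognises glycoproteins, and Mia, a small secreted protein. Fbxo2 was at 3439 CPM at P1 and 3521 CPM at P7, and Mia at 2796 and 4346 CPM. In the other Epcam cells, Fbxo2 was at 2091 and 1821 CPM and Cldn9 at 229 and 447 CPM. Mia was seen in 60 of 86 and 34 of 50 of them, so these genes were not particular to the members.

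Genes of the supporting cell list were mostly higher in the members than in all other kept cells, but not all were present. At P1, 6 of 9 tested genes were higher and 1, Slc1a3, was lower, where 6.97% and 8.91% of all genes were. At P7, 5 of 8 were higher and 0 were lower, where 7.96% and 7.02% of all genes were. Sox2, a transcription factor of the prosensory epithelium, was at 169 CPM in the members at P1 and 261 CPM at P7. Jag1, a Notch ligand, was at 84.8 and 184 CPM. Hes5, a Notch target, was at 0 UMIs in the members of both libraries. Lgr5, an R-spondin receptor of the Wnt pathway, was at 0.551 and 2.09 CPM. Sox2 was seen in 62 of 176 members at P1 and 68 of 131 at P7, so a part of the members held it, while Lgr5 was almost absent.

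Clu and Calb1 were the other genes of the working label. Clu, a secreted chaperone, was at 828 CPM in the members, 604 CPM in the other Epcam cells and 168 CPM in all other cells at P1. At P7 it was at 2219, 1658 and 358 CPM. Clu was seen in 153 of 176 members at P1 and 121 of 131 at P7, and in 71 of 86 and 38 of 50 other Epcam cells. Thinned to 2000 UMIs per cell, it was seen in 58.6% and 82.3% of the members and in 2.31% and 9.93% of macrophages, which should lack the membrane genes and had median depths of 7831 and 7277 UMIs against 8947 and 10425 in the members. Of these macrophages, 17.3% at P1 and 13.8% at P7 were called doublets. Clu was common in the other Epcam cells too. Calb1, a calcium-binding protein, was at 284 CPM and in 64 members at P1, and at 156 CPM and in 29 members at P7. Its level in the other Epcam cells was 657 CPM at P1 and 44.9 CPM at P7. Calb1 therefore did not mark most members, and at P1 its level was lower in them than in the other Epcam cells, while the share of cells with a UMI was 36.4% in the members and 24.4% in the other Epcam cells (21.3% and 18.3% thinned). That P1 order of the levels turned when cells with more than 10% mitochondrial UMIs were left out (log2 ratio 0.60), when 1 UMI of Epcam was enough (0.67) and when members were chosen by Tecta alone (0.31). At P1, 1 cell held 21.7% of the members' Calb1 UMIs.

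**Figure D2:**
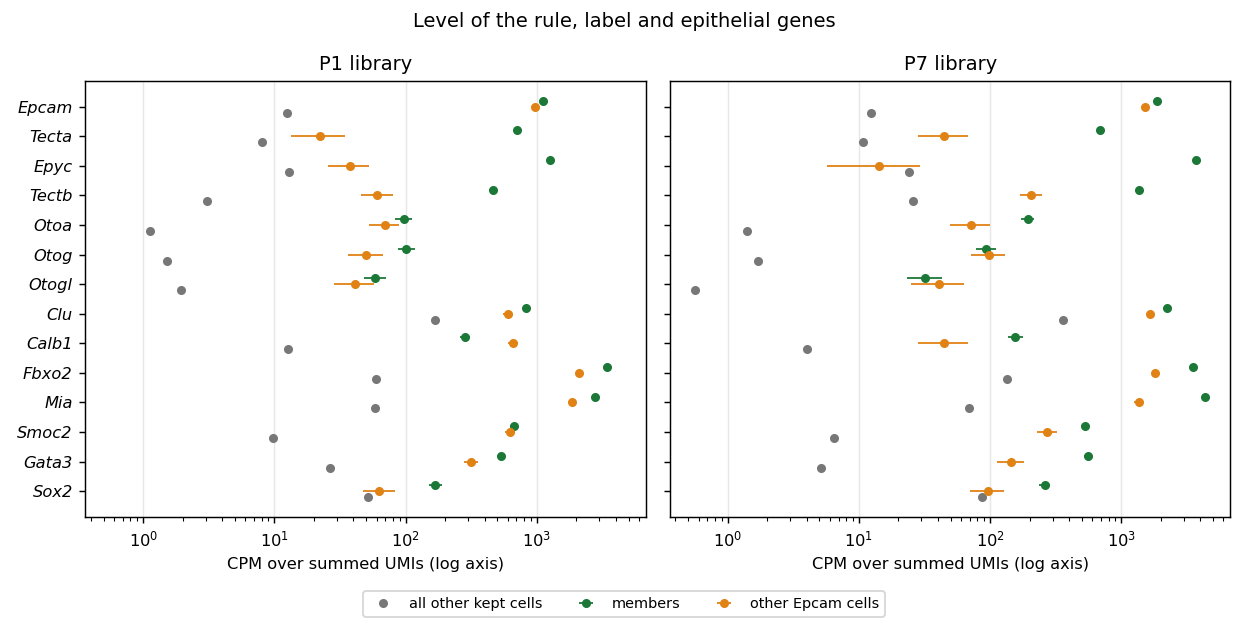
Level in CPM of summed UMIs (log axis, horizontal) of 14 genes in the members (green), the other Epcam cells (orange) and all other kept cells (grey) at P1 (left) and P7 (right). Bars on the green and orange points are exact 95% Poisson intervals, and the members exceed all other cells for each gene shown, while Calb1 at P1 lies lower in the members than in the other Epcam cells.

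The remaining glycoproteins of the tectorial membrane were described beside the other Epcam cells. The log2 ratios with intervals were formed from UMIs with no pseudocount. Of the 5 genes in the list outside the rule, 4 passed the filter, and 1 was higher in the members at P1 (1.90% of 7461 genes) and 2 at P7 (4.01% of 7715 genes). Over all genes tested, the median log2 ratio of the members to the other Epcam cells was -0.04 at P1 and 0.03 at P7. The list median was 0.70 at P1 and 0.66 at P7.

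Tectb, beta-tectorin, was at 463 CPM in the members and 60.9 CPM in the other Epcam cells at P1, a log2 ratio of 2.93 (2.52 to 3.36). At P7 it was at 1375 and 206 CPM, a log2 ratio of 2.74 (2.45 to 3.04). Between the ages, Tectb was higher in the P7 members by a log2 ratio of 1.57 (1.45 to 1.69). With members chosen by Epyc alone, the log2 ratio was -5.25 at P1 and -0.10 at P7. Under that rule, the members with Tecta and too little Epyc were counted among the other Epcam cells. Most members had no UMI of Tectb. It was seen in 63 members of each library and reached 73 UMIs in a P1 cell and 262 in a P7 cell. Thinned to 2000 UMIs, 27.0% of the P1 members (47 of 174) and 25.7% of the P7 members (29 of 113) had a Tectb UMI. Without thinning the shares were 35.8% and 48.1%. Thinning left out 2 P1 members and 18 P7 members of low depth, and most of the latter were in the P7 group of cells with the highest Tectb level, so the thinned shares were not compared between the ages. Among the other Epcam cells, 7.32% at P1 and 22.7% at P7 had a Tectb UMI after thinning, and 9.30% and 36% without it. At P7 the thinned share was thus close in the members and the other Epcam cells. Tectb was seen in 0% and 2.65% of macrophages after the same thinning. The P1 value of 0 of 130 cells allows a share of up to 2.31% (3 counts of the total), and without thinning 2 of 133 P1 macrophages held a Tectb UMI.

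Otoa was nearer to its level in the other Epcam cells at P1, at 96.9 against 69.1 CPM, a log2 ratio of 0.49 (0.06 to 0.94). At P7 it was at 193 against 71.4 CPM, a log2 ratio of 1.44 (0.93 to 1.99), which turned to -1.22 with members chosen by Tecta alone. Otoa was seen in 28.4% of the P1 members and 38.2% of the P7 members without thinning, and in 11.5% and 28.3% of thinned members, shares that were not compared between the ages for the reason given for Tectb. In thinned macrophages it was seen in 0% at both ages. The level had a log2 ratio between the ages of 1.00 (0.72 to 1.28). Otog, which encodes the glycoprotein otogelin, was at 101 against 50.3 CPM at P1 and at 93.9 against 97.9 CPM at P7. Otogl, otogelin-like, was at 58.4 against 41.0 CPM at P1 and 32.0 against 40.8 CPM at P7. The members thus stood above the other Epcam cells for Otog at P1 and not at P7. Ceacam16, an adhesion glycoprotein of the mature membrane, was at 0 UMIs in the P1 members, which allows up to 1.65 CPM, and at 7.65 CPM in 8 P7 members.

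Collagens form the bulk of the membrane. The list of 8 summed to 4825 CPM in the members, 2624 in the other Epcam cells and 3384 in all other cells at P1. At P7 the sums were 4687, 4667 and 6426 CPM. In macrophages they were 533 and 2338 CPM, so these genes were not particular to the members. Col9a2, Col11a1 and Col11a2 were the 3 of 7 tested collagen genes that were higher in the members than in the other Epcam cells at P1, where 1.90% of all genes were, and 0 of 7 were higher at P7, where 4.01% were. Col5a2, a minor fibrillar collagen, was at 6.06 against 18.7 CPM at P1 and 8.35 against 28.5 CPM at P7, and passed the filter only through the other Epcam cells. Col9a2 was at 2253 against 1121 CPM at P1 and at 2028 against 1321 CPM at P7. Col2a1, the main fibrillar collagen of the membrane, was at 336 against 208 CPM at P1 and 290 against 336 CPM at P7. Lum, a leucine-rich proteoglycan of the same family as epiphycan, was at 124 against 16.4 CPM at P1 and 513 against 114 CPM at P7. Lum was higher in the members in both libraries, with log2 ratios of 2.92 (2.14 to 3.81) and 2.17 (1.78 to 2.59). The rest of its list differed: of 6 tested proteoglycans outside the rule, Dcn and Bgn were lower (5.55% of all genes were lower at P1) and only Lum was higher, with a list median of -0.60. At P7, Lum and Fmod were higher and Bgn was lower, and Kera passed the filter only through the members. In both libraries, 54 genes (0.809% of 6678) were higher in the members and 51 (0.764%) were lower.

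Among transcription factors of the otic epithelium, Prox1 at P1 passed the filter only through the members and Lmx1a only through the other Epcam cells, so no count is given for P1. At P7, 3 of 11 tested genes were higher and Lmx1a and Dlx5 were lower, where 4.01% and 3.72% of all genes were. Sox2 and Isl1 were higher in both libraries, and with members chosen by Epyc alone their P1 log2 ratios turned, to -3.76 and -1.29. Sox2 was at 63.2 CPM in the other Epcam cells at P1 and 95.8 CPM at P7, and its log2 ratios were 1.41 (0.99 to 1.86) and 1.44 (1.00 to 1.91). Isl1, a LIM homeodomain factor, had log2 ratios of 1.13 (0.74 to 1.54) and 1.43 (0.85 to 2.06). Gata3, which is needed for the prosensory domain, was at 537 CPM in the members at P1 and 559 CPM at P7, against 316 and 145 CPM in the other Epcam cells. In all other cells Gata3 was at 26.3 and 5.11 CPM, so its level was close in the members of both libraries and lower at P7 outside them. Thrb, a thyroid hormone receptor needed for hearing, was at 143 against 51.5 CPM at P1 and 204 against 46.9 CPM at P7. Prss23, a serine protease, was at 316 against 101 CPM and at 522 against 102 CPM, and its P1 log2 ratio was -0.18 with members chosen by Epyc alone.

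Igf1 and RGD1305645 were named among the genes higher in the members than in the other Epcam cells. RGD1305645, for which RefSeq gives the synonym Ecrg4, encodes a secreted peptide precursor and was at 6841 against 2940 CPM at P1 and 5293 against 1474 CPM at P7. Igf1, an insulin-like growth factor, was at 2327 against 767 CPM at P1 and 1094 against 408 CPM at P7. Both were higher in the members in each library, but RGD1305645 turned with members chosen by Tecta alone, to log2 ratios of -1.08 at P1 and -1.16 at P7. Between the ages, Igf1 was lower in the P7 members by a log2 ratio of -1.09 (-1.17 to -1.01), while in all other cells it was at 220 and 227 CPM.

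Markers of hair cells at P1, and of Reissner's membrane and the stria at both ages, were at lower summed levels in the members than in the other Epcam cells. Many genes of these lists passed the filter only through the other Epcam cells, so the lists are given by their sums. At P1, the summed hair cell list was at 569 CPM in the members and 2571 CPM in the other Epcam cells. At P7 the sums were 229.6 and 228 CPM, close to each other. Pou4f3 and Atoh1, factors that define hair cells, were at 0 UMIs in the P7 members. The list of stria marginal cells summed to 214 against 409 CPM at P1 and 387 against 811 CPM at P7. The list of Reissner's membrane was nearly all Oc90. Oc90, an otoconial protein made by Reissner's membrane, was at 2024 against 11257 CPM at P1 and 7905 against 42424 CPM at P7, an order that turned at P7 when 1 UMI of Epcam was enough (log2 ratio 0.10). A single P1 cell held 69.4% of the members' Oc90 UMIs.

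Of the supporting cell genes, Sox2, Jag1, Hey2, Prss23 and Gjb2 were higher in the members at P1, and Prox1, at 15.4 against 4.68 CPM, passed the filter only through them. At P7, 2 of 9 tested genes, Sox2 and Prss23, were higher, where 4.01% of all genes were. With members chosen by Epyc alone, the P1 log2 ratio of Jag1 turned, to -3.17. The lists for Kölliker's organ were markers that the study cites from earlier work. Of the lateral genes, Tectb, Tsen15 and Cpxm2 were higher and Dcn was lower at P1, and Gjb6 passed the filter only through the members. At P7, 5 of 9 were higher, these 3 with Gjb6 and Ccn2, and 0 were lower, where 4.01% and 3.72% of all genes were. Cpxm2, a carboxypeptidase-like secreted protein, was at 153 against 44.5 CPM at P1 and 201 against 61.2 CPM at P7. Of the 3 tested medial genes outside the rule, Itm2a was higher and Calb1 lower at P1, where 1.90% and 5.55% of all genes were, and both were higher at P7, where 4.01% were. Itm2a, a membrane protein, was at 203 against 71.4 CPM and 102 against 46.9 CPM. Its log2 ratio turned with members chosen by Tecta alone (-0.66 at P1 and -0.037 at P7) and, at P7, with 1 UMI of Epcam (-0.27).

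Genes of the ATP-driven waves were present at low levels. Gjb2 and Gjb6 encode connexins of the cochlear gap junctions, and Ano1 encodes a chloride channel that opens with calcium. Gjb2 was at 177 against 43.3 CPM at P1 and 110 against 67.3 CPM at P7. Gjb6 was at 30.8 against 5.85 CPM and at 41.0 against 16.3 CPM. Ano1 was at 46.3 against 12.9 CPM at P1 and 29.2 against 8.16 CPM at P7. The members were at the higher level for each of these pairs, and Gjb6 at P1 and Ano1 at P7 passed the filter only through the members. With members chosen by Epyc alone, the log2 ratio of Ano1 turned to -1.97 at P1 and -0.031 at P7, and that of Gjb6 to -0.56 at P7. With 1 UMI of Epcam, Gjb6 was at -0.29 at P7.

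Within the members, 667 of 7583 tested genes (8.80%) were higher past 2-fold at P7 and 309 (4.07%) were lower, and the median log2 ratio over all of them was 0.13. When mitochondrial, ribosomal protein and haemoglobin genes were left out of the total, the counts were 698 higher and 538 lower, so the balance depended on the scaling. Ribosomal protein genes had a median of -0.48, with 7 of 75 tested lower and 0 higher.

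The members of the membrane list divided. Tectb was higher at P7 and Otoa was just short of 2-fold on the scale with the pseudocount. Otog had a log2 ratio of -0.11 (-0.44 to 0.22) and Otogl of -0.87 (-1.40 to -0.35). Of 6 tested collagens of the membrane, 0 were higher and 0 were lower. Among the small leucine-rich proteoglycans outside the rule, Dcn and Lum were higher, and Kera, with 1 UMI at P1 and 52 at P7, passed the filter only through the P7 members. The log2 ratio for Lum was 2.05 (1.83 to 2.27).

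Ucma, Tmprss9 and Pmch were among the genes with the highest ratios of P7 to P1. Ucma, a secreted protein first known from cartilage, was at 113 CPM in the P1 members and 1036 CPM at P7, a log2 ratio of 3.19 (2.98 to 3.41). It was seen in 36 P1 members and 53 P7 members. Ucma was at 80.8 and 128 CPM in the other Epcam cells and at 1.62 and 4.12 CPM in all other cells. Its P7 level in the members was above both. With members chosen by Tecta alone, Ucma lay under its level in the other Epcam cells drawn by that rule (log2 ratio -1.63). Tmprss9, a serine protease of the membrane-bound family, was at 5.51 and 222 CPM, in 10 and 51 members. Kazald1, a secreted protein of the lateral list, was at 45.7 and 572 CPM in the members, and at 305 and 830.5 CPM in all other cells.

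Pmch, the precursor of melanin-concentrating hormone, was at 0 UMIs in the P1 members and 2740 CPM in the P7 members. Against a limit of 3 counts over the P1 members, it was at least 1659-fold higher. It was seen in 21 P7 members, and 1 cell held 1263 UMIs, 32.1% of the total. The other Epcam cells had 0 UMIs in both libraries, and all other kept cells were at 5.36 CPM at P1 and 42.3 CPM at P7. Macrophages held a Pmch UMI in 5 of 159 cells (3.14%) at P7 with no thinning, and 13.3% of thinned P7 members did, against 1.99% of thinned macrophages.

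Of the genes of ATP release and signalling, P2rx2 was higher at P7 in the members, and P2ry1, Itpr1 and Itpr3 were too but passed the filter only through the P7 members, so no count of the list is given. P2rx2, an ATP-gated channel, was at 67.2 and 298 CPM, a log2 ratio of 2.15 (1.85 to 2.45). P2ry1, a G protein-coupled receptor for ADP, was at 6.61 and 36.2 CPM, a log2 ratio of 2.45 (1.53 to 3.49). Itpr1 and Itpr3, calcium channels of the endoplasmic reticulum, had 13 UMIs each in the P1 members, and 37 and 32 UMIs in the P7 members. In all other cells the log2 ratios were 0.40 for P2rx2 and 0.14 for P2ry1. In the other Epcam cells P2rx2 was at 126 CPM at P7, while no gene of the list was above 48.0 CPM at P1. The higher P2rx2 level at P7 was thus not particular to the members. Gjb2 had a log2 ratio of -0.69 (-0.97 to -0.41), against 1.41 in all other cells. Cldn9 and Cldn8, claudins that seal the epithelium, were higher by log2 ratios of 1.10 (0.96 to 1.24) and 1.47 (1.21 to 1.74), and Cldn14 and Cldn11 were higher too. Cldn9 was also higher at P7 in the other Epcam cells, at 229 CPM at P1 and 447 CPM at P7. Cldn5, a claudin of endothelium, had 3 UMIs in the P1 members and passed the filter only through the P7 members, so no count of the connexins and claudins is given. Emcn and Ramp2 of the endothelial list were also higher, and the part of endothelial RNA in these differences was not tested.

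Fst, Bmp4 and Lmo3, of the outer sulcus list, were among the genes lower at P7. Fst, which encodes the activin antagonist follistatin, was at 278 CPM in the P1 members and 20.9 CPM in the P7 members, a log2 ratio of -3.73 (-4.32 to -3.20). Bmp4, a growth factor of the lateral epithelium, was at 210 and 34.8 CPM, a log2 ratio of -2.59 (-3.05 to -2.16), while it was 0.62 in all other cells. Lmo3, a LIM-only protein, was at 88.1 and 16.0 CPM. At P1, group 4 described below (30 cells) held 347 of 381 Bmp4 UMIs of the members and 386 of 504 Fst UMIs. Of 5 tested genes of the list, these 3 were lower (4.07% of all genes) and Anxa1 was higher (8.80%). Thinned, Bmp4 was seen in 17.2% of the P1 members and 1.77% at P7, and Fst in 16.1% and 3.54%. Macrophages held Bmp4 in 0% and 1.32%, and Fst in 1.54% and 0.662%. The P7 share of Bmp4 lay near this background, and that of Fst rested on 4 of 113 members against 1 of 151 macrophages. The thinned shares were not compared between the ages, for the reason given for Tectb. When members were chosen by Tecta alone, the ratios turned, to 0.22 for Fst and 1.18 for Bmp4.

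Fos and Jun, which encode partners of the AP-1 transcription factor, were also lower at P7. Fos was at 722 and 216 CPM in the members and Jun at 1035 and 236 CPM. In all other cells their log2 ratios were -1.71 and -0.86, so the direction was shared with the rest of the library. Of 11 tested apoptosis genes, Fos and Jun were the 2 that were lower (4.07% of all genes) and 0 were higher (8.80%).

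**Figure D3:**
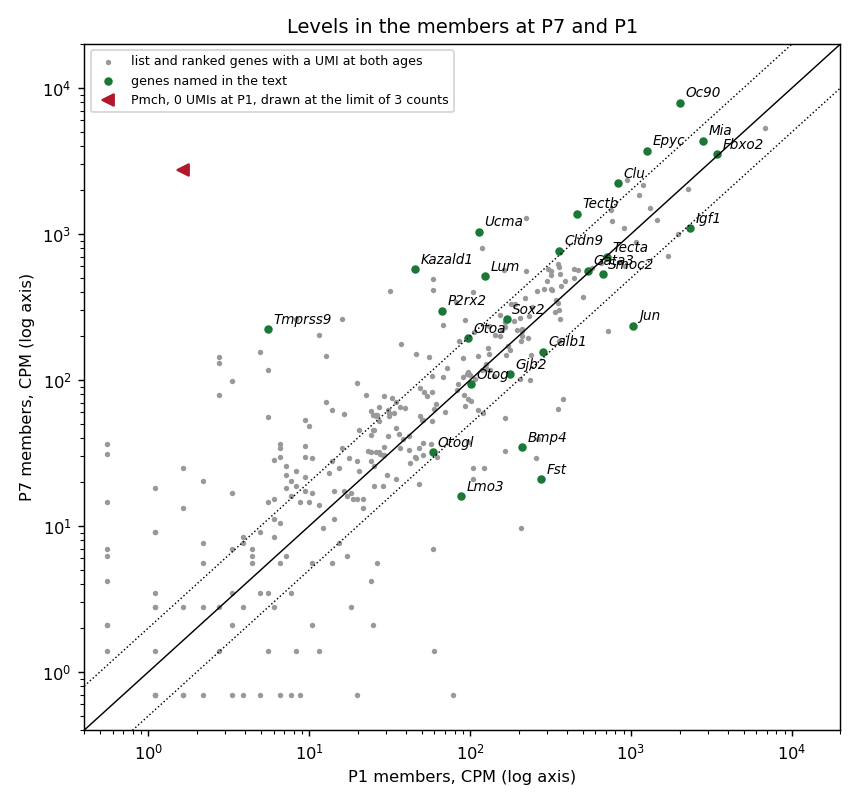
Level in CPM of list and ranked genes in the P1 members (horizontal, log axis) and the P7 members (vertical, log axis). The solid line marks equal levels and the dotted lines a 2-fold difference; Ucma, Kazald1, P2rx2 and Tmprss9 lie above the upper line, Fst, Bmp4, Lmo3 and Jun below the lower one, and Pmch is drawn at its limit of 3 counts at P1.

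Markers of several other cell types moved with the P7 members. Of 8 tested glial genes, 6 were higher at P7, where 8.80% of all genes were, and the list summed to 1638 CPM in the P1 members and 5069.7 CPM in the P7 members, with 0 genes at 0 UMIs and Dbi at the highest count. The same sum was 3263 and 7102 CPM in all other cells, and 1173 and 2769 CPM in macrophages. Mbp, myelin basic protein, was at 31.9 and 407 CPM in the members, and 1 P7 cell held 45.1% of it. Without the top cell of each library the log2 ratio for Mbp was 2.87. Of the mesenchymal genes, Col3a1, Pou3f4, Dcn, Lum and Gpc3 were higher and Car3, with 1 UMI at P1, passed the filter only through the P7 members, and the list summed to 1711 and 3819 CPM in the members and 12824 and 14733 CPM in all other cells. Its highest count was Otor, which was seen in 29.3% of thinned P1 members and 38.9% at P7, against 30.8% and 53.0% of macrophages, a share at or under this background. The list of Reissner's membrane, nearly all Oc90, summed to 2046 and 8025 CPM in the members and 153 and 312 CPM in all other cells, with 1 of 5 genes at 0 in the members of each library. The dividing list summed to 126 and 307 CPM in the members and 500.7 and 671 CPM in all other cells, with Pcna at the highest count in the members and 0 genes at 0. The stria marginal list summed to 214 and 387 CPM in the members and 84.6 and 104 CPM in all other cells. Lower sums at P7 were found for the hair cell list, at 569 and 230 CPM in the members and 312 and 130 CPM in all other cells. The neuron list was lower too, at 197 and 89.7 CPM in the members and 833 and 153 CPM in all other cells. The part of these RNAs in the difference between ages was not tested. The macrophage list summed to 1.10 CPM in the P1 members, with 7 of 9 genes at 0, and to 25.7 CPM at P7, with Cx3cr1 and Ptprc at 0. The erythroid list summed to 51.2 and 113 CPM, with Hba-a2.1 at the highest count and Alas2 at 0 in both.

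Members that held Epyc alone, Tecta alone or both differed in their other genes. At P1, Tectb was at 1283 CPM in the members with Tecta alone, 48.9 CPM in those with both and 4.21 CPM in those with Epyc alone, where it rested on 3 UMIs. Otoa took the opposite order, at 17.3, 102 and 164 CPM. Sox2 was at 446 CPM with Tecta alone and 8.43 CPM with Epyc alone, and S100a1, a calcium-binding protein of supporting cells, was at 913 and 85.7 CPM. Smoc2, a secreted calcium-binding matrix protein, was at 58.3 CPM with Tecta alone and 1197 CPM with Epyc alone. Gata2 and Bmp4 were at 843 and 529.6 CPM with Epyc alone, and at 33.1 and 3.15 CPM with Tecta alone. Fst was at 697 CPM with Epyc alone and had 7 UMIs with Tecta alone. The cells with Tecta alone thus held more Tectb, Sox2 and S100a1 than the cells with Epyc alone. Among the cells with Epyc alone, Otoa and Smoc2 on the one side and Bmp4, Fst and Gata2 on the other lay in different groups of cells, which are described with the groups of members.

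At P7 the same split held for several of these genes. Tectb was at 1420 CPM with Tecta alone, 1716 CPM with both and 196 CPM with Epyc alone. Otoa was at 58.2, 172 and 447 CPM in that order, and Smoc2 at 43.6, 353 and 1755 CPM. Ucma was at 122 CPM with Tecta alone and 2484 CPM with Epyc alone. Pmch was at 5.80, 3189 and 4949 CPM. Sox2 was at 335 CPM with Tecta alone and 70.5 CPM with Epyc alone. At both ages, then, Tectb and Sox2 were higher in cells with Tecta alone than in cells with Epyc alone, and Otoa and Smoc2 were lower.

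When the members of each library were clustered without Epcam, Tecta and Epyc, 5 groups formed at P1 and 6 at P7. These groups are a description, since their genes made them. At P1, group 1 (59 cells) was led by Top2a, a gene of dividing cells that was seen in 4 of its cells, and by Moxd1 and Itga8. Its top 10 genes held 2 dividing markers, Top2a and Ube2c, and 3 mesenchymal markers, Dcn, Otor and Pou3f4. It held 7 called doublets, with Tecta at 1469, Epyc at 1544 and Tectb at 866 CPM. Group 2 (40 cells) had as its first gene Oc90, a marker of Reissner's membrane, at 7319.6 CPM in 12 cells, with 2552 of its 3589 UMIs in 1 cell. It held Smoc2 at 2186 CPM, Ucma at 390 CPM, Otoa at 304 CPM, 1 UMI of Bmp4, 2 of Gata2 and none of Tectb or Fst. Group 3 (34 cells) held Tectb at 1055 CPM, Sox2 at 583 CPM and S100a1 at 1485 CPM, while its leading genes, Otof among them, rested on 4 to 6 cells. Group 4 (30 cells) held Bmp4 at 1127 CPM, Fst at 1254 CPM, Lmo3 at 429 CPM and Gata2 at 1741 CPM. Its cells held Epyc and no UMI of Tecta, Otoa or Calb1. Bmp4, Fst and Lmo3 are markers of the outer sulcus list, but Slc26a4, Anxa1 and Epha4 of the same list were at 0 UMIs in it, and the group was left unnamed. Group 5 (13 cells) was led by Nebl, Rspo2 and Fmo5, and its top 10 genes held Itm2a of the medial list and Rbfox3 of the neuron list. It held Igf1 at 7177 CPM and RGD1305645 at 10068 CPM, while group 2 held them at 5996 and 17390.5 CPM.

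At P7, group 1 (44 cells) held Tectb at 4616 CPM, with Tecta at 1531 and Epyc at 5796 CPM. Its top 10 genes also held Kera, Ccn2 of the lateral list, and Car3, Cldn5 and Lmo3 of the mesenchymal, endothelial and outer sulcus lists. Group 2 (28 cells) held Otoa at 635 CPM, seen in all 28, with Ucma at 3479 and Smoc2 at 2093 CPM. Group 3 (19 cells) held Pmch at 17715 CPM in 14 cells and P2rx2 at 869 CPM. Group 4 (16 cells) was led by the cycle genes Top2a, Cenpf and Cdk1, with Otor at 6176 and Dcn at 2448 CPM, and 5 of its cells were called doublets. Group 5 (12 cells) held Oc90 at 74039 CPM and no UMI of Gata3. Group 6 (12 cells) held S100a1 at 2524 CPM, Jag1 at 722 CPM and Tectb at 1704 CPM, with Epyc at 46.2 CPM. Thus Otoa, Smoc2 and Ucma were highest in a different group from Tectb in each library.

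**Figure D4:**
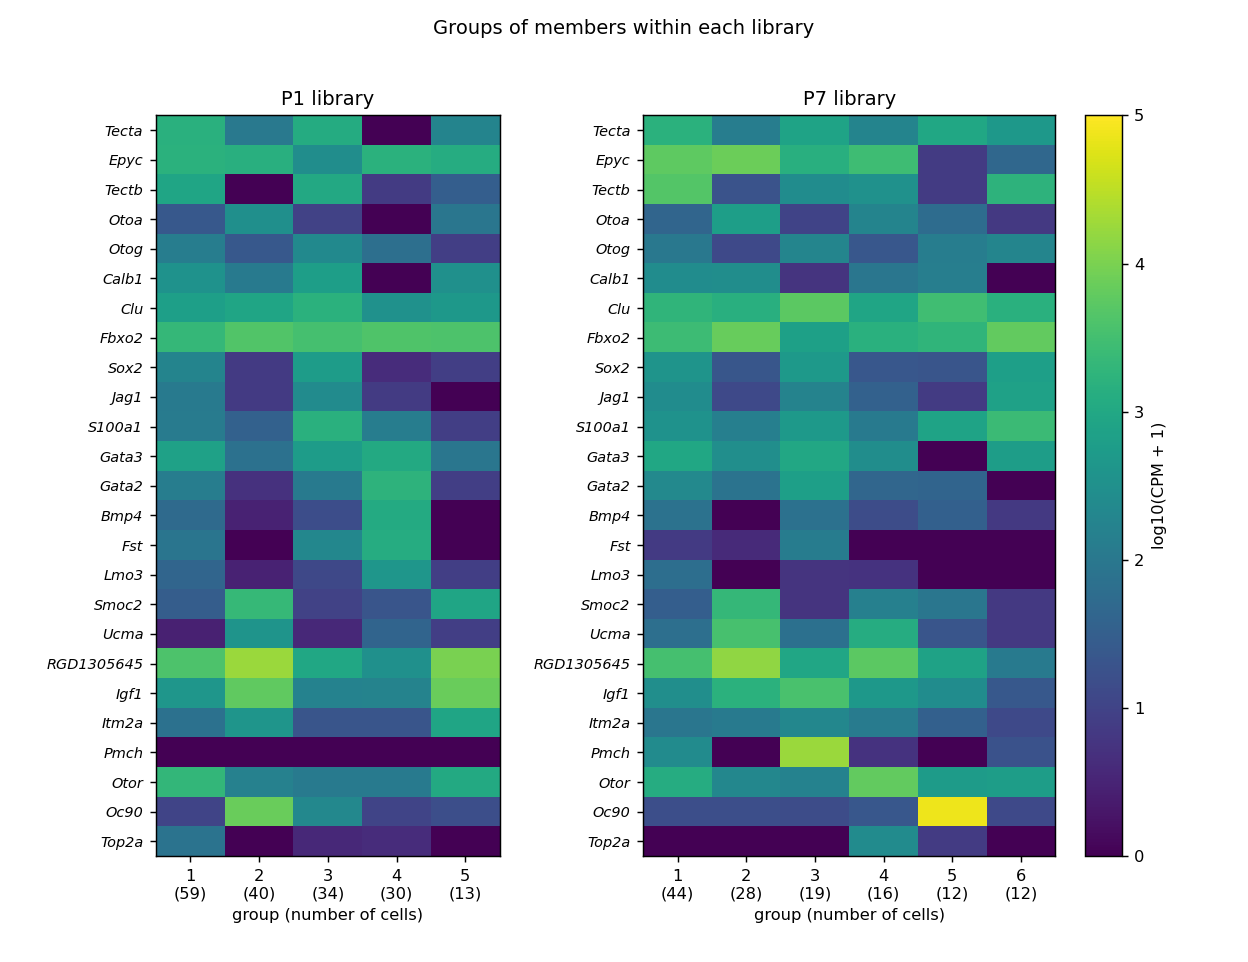
Levels of 25 genes as log10(CPM + 1) (colour) in the groups of members at P1 (left, 5 groups) and P7 (right, 6 groups), with the number of cells under each group. Otoa, Smoc2 and Ucma are high in group 2 at both ages, Tectb in groups 1 and 3 at P1 and 1 and 6 at P7, Bmp4 and Fst in group 4 at P1, and Pmch in group 3 at P7.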

How the data were processed

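The authors ran Cell Ranger on the reads of a 10x Genomics library from each age and deposited UMI counts per gene and barcode (rat, build rn6), and the labels also name Seurat 3.1.1 and bcl2fastq. The deposited counts held 14068 barcodes at P1 and 14501 at P7. Barcodes with more than 500 and fewer than 5000 genes and under 25% of UMIs on mitochondrial genes were kept, and doublets were marked with Scrublet and retained. UMIs were summed over a set of cells and scaled to CPM. Genes with a mean of at least 10 CPM over the sets compared were tested for a 2-fold difference on log2(CPM + 5), as a rule of size and not a statistical test. Macrophages were kept barcodes with at least 5 UMIs over C1qa, C1qb and C1qc and none of Epcam, and served as a background, free RNA and doublets included. Detection shares were thinned to 2000 UMIs per cell. Intervals at 95% were Clopper-Pearson, exact Poisson or conditional binomial. Groups came from Leiden clustering (scanpy 1.11.5, 1000 variable genes, 10 components, 15 neighbours, resolution 0.5). Named genes were those of the lists, except 1 gene that is not reported here, and the 15 with the largest ratios in each comparison. Members and lists were chosen with earlier results of these data known. The scripts were tested on simulated data. The alternatives changed the rule, the filters, the pseudocount, the scaling and the removal of doublets.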

Additional observations from a re-analysis of the deposited data

Results flagged for a closer look

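The ratio of the members to the other Epcam cells went opposite ways in the libraries for Calb1 and Espn, and the difference was not tested. On the log2(CPM + 5) scale Calb1 was at -1.20 at P1 and 1.69 at P7. Espn, an actin-bundling protein of hair bundles, was at -1.45 at P1 and 1.73 at P7, and its P7 value rested on 36 UMIs in the members and 2 in the other Epcam cells, a log2 ratio without the pseudocount of 2.62 (0.66 to 5.72), so that Espn passed the filter at P7 only through the members. Of 6678 genes tested in both libraries, 14 (0.21%) were past 2-fold in opposite directions.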

How the results depend on the processing

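No paired analysis was possible because each age had 1 library, and for the same reason no replicate could be left out. Of the values for named genes under the alternatives, 1691 moved little, 418 moved and 33 turned in direction; of shares and counts, 135, 37 and 1 did. The cause was not tested. The log2 ratio of member shares was -0.026 with Tecta alone in the rule and 0.021 after thinning. Counts of genes past 2-fold moved over 1.5 times as follows, for members against other Epcam cells unless P7 to P1 is named. With 1 Epcam UMI, 337 were higher at P1, and 222 higher and 187 lower in both libraries. With Tecta alone, 263 were lower at P1, and 186 higher and 169 lower at P7. With Epyc alone, 108 were lower in both. Under 10% mitochondrial UMIs, 486 were higher at P7 and 96 lower in both. With a pseudocount of 1, 230 were higher at P1 and 469 at P7, and with 10, 204 were lower from P7 to P1 and 185 lower at P7. At a mean of 50 CPM, P7 to P1 gave 210 higher and 92 lower, P1 gave 54 and 111, P7 gave 100 and 85, and both libraries 25 and 18. With no filter beyond 1 UMI, 219 were higher and 654 lower at P1, 535 higher at P7 and 87 lower in both. Without mitochondrial, ribosomal and haemoglobin genes in the total, 538 were lower from P7 to P1. With the mean of per-cell CPM, 473 were higher and 541 lower at P7. At a resolution of 0.3, P7 gave 3 groups. Directions turned for these log2 ratios, in which the other Epcam cells were redrawn with each changed rule. With 1 Epcam UMI they were Calb1 0.67 and Mbp -2.18 at P1, and Oc90 0.10, Gjb6 -0.29, Itm2a -0.27 and Mbp -0.37 at P7. With at least 5 UMIs of Tecta and Epyc Mbp was -1.80 at P7. With Tecta alone they were Fst 0.22 and Bmp4 1.18 from P7 to P1, Calb1 0.31, RGD1305645 -1.08 and Itm2a -0.66 at P1, and Otoa -1.22, Ucma -1.63, RGD1305645 -1.16, Lmo3 -0.64, P2ry1 -0.75, Itm2a -0.037 and Mbp -1.51 at P7. With Epyc alone they were Oc90 -2.02 and Fgf10 0.98 from P7 to P1, Tectb -5.25, Sox2 -3.76, Jag1 -3.17, Prss23 -0.18, Ano1 -1.97, Fgf10 -1.91, Mbp -0.52 and Isl1 -1.29 at P1, and Tectb -0.10, Gjb6 -0.56 and Ano1 -0.031 at P7. Under 10% mitochondrial UMIs, Calb1 was 0.60 at P1. An alternative chosen after seeing the data, each gene without its top cell, turned none of these ratios. At this depth a gene at 0 UMIs in the P1 members can lie at up to 1.65 CPM.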
